A study of Mus musculus with 9 samples.

Results

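The antioxidant and xenobiotic metabolism genes of mouse ear epidermis were examined in IMQ-induced psoriasis-like dermatitis with and without Xiao-Yin-Fang (XYF), a Chinese herbal decoction. They are a list of 43 genes taken by their symbol from a count table of 52550 genes, and all 43 symbols matched 1 gene each. The list was not chosen by a threshold on these counts, but earlier results of these data were known when it was chosen. It holds Nrf2 and its inhibitor Keap1, enzymes of the glutathione and thioredoxin systems, superoxide dismutases and catalase, glutathione transferases, aldehyde oxidases, and enzymes of carbonyl and epoxide metabolism. RNA sequencing covered 3 groups of 3 libraries, all from wild type C57BL/6 mice labelled as 8 weeks old, given as male and of the strain C57BL/6J in the methods. The control group (VAS + H2O) had Vaseline on the ears for 5 days and ddH2O by gavage for 10 days. The model group (IMQ + H2O) had imiquimod cream, an agonist of Toll-like receptor 7, in place of Vaseline. The XYF group (IMQ + XYF) had imiquimod and 200 µl of XYF at 23.3 mg/g in place of water. The comparisons ask what imiquimod does to the epidermal transcriptome, and what XYF does to it under imiquimod. No group had XYF on Vaseline-treated skin. The methods take the ear sheets from 2 mice and do not say whether each library did, so the p-values below measure the spread between these libraries, which may be partly technical.

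Nrf2, encoded by Nfe2l2, is the transcription factor of the antioxidant response. Keap1 holds Nrf2 in the cytoplasm and feeds it to degradation, and electrophiles or oxidants that modify Keap1 let Nrf2 enter the nucleus. There it pairs with small Maf proteins on antioxidant response elements of genes that make and recycle glutathione, reduce peroxides and quinones, and detoxify reactive carbonyls. In epidermis this system protects keratinocytes from ultraviolet light, irritants and inflammatory oxidants. Aldehyde oxidases, carbonyl reductases, epoxide hydrolases and glutathione transferases process drugs and reactive lipid products in the skin as they do in liver.

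The libraries held 30298275 to 64771160 counts on genes. Levels are given as CPM, counts scaled to the library total after TMM normalization. A count of 3, taken as the floor of detection, corresponds to 0.0463 to 0.0990 CPM of the library total without the TMM factors, which lay between 0.956 and 1.06. Floors and counting intervals cover counting error only. The 43 genes took 0.234% to 0.244% of the counts in VAS + H2O, 0.307% to 0.360% in IMQ + H2O and 0.331% to 0.354% in IMQ + XYF. The keratinocyte markers Krt5, Krt14, Krt1, Krt10, Trp63 and Dsp summed to 42846 to 67196 CPM, which matches the labelled tissue. Dermal fibroblast markers were also present, and replicate 2 of VAS + H2O stood apart with 624 CPM against 44.6 to 202 CPM in the other 8 libraries. Replicate 3 of IMQ + H2O stood apart in the neutrophil markers, with 2170 CPM against 280 and 358 CPM in the other IMQ + H2O libraries. In bulk RNA of this kind, fewer cells of a type and less RNA per cell cannot be told apart.

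Since several of the members are known targets of Nrf2, the core of the antioxidant response element, TGACNNNGC, was searched on both strands of the 250 bases before the annotated start in RefSeq promoters of GRCm38.p6, which matched 37 of the 43 genes. Of these 37 genes, 8 (21.6%) held the core, against 11.5% of all 27025 genes with such a window. They were Nfe2l2 itself, Txnrd1, Gclm, Prdx1, Sod1, Gsta3, Gstm5 and Mgst1. The AP-1 site TGANTCA, which can overlap the core, was in the windows of 7 of the 37 genes (18.9%) and of 7.82% of all genes. In Nfe2l2 the core began 240 bases before the start. Like those of Gsta3 and Sod1, which are not shown, the cores of Txnrd1, Gclm and Prdx1 lie outside every annotated exon. The stretches around these 3 cores are shown as examples. The core is in capitals and, in all 3 genes, reads TGACNNNGC on the strand opposite to the gene. The stretches are at chr10:82859069-82859167, chr3:122245378-122245476 and chr4:116685421-116685519, written 5′ to 3′ on the strand of the gene, which is the plus strand.
Txnrd1: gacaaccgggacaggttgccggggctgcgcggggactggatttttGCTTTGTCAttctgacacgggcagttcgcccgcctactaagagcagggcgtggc
Gclm: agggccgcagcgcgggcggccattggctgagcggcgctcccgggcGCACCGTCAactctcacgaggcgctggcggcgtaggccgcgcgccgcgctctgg
Prdx1: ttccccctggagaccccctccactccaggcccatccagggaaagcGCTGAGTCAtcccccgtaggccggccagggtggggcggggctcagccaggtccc
Txnrd1 has several annotated starts, and its core lies 92 bases before an internal one. The cores of Gclm and Prdx1 lie 134 and 133 bases before the start. The core of Prdx1 overlaps an AP-1 site, and those of Txnrd1 and Gclm do not. The windows of Nqo1, Slc7a11, Gpx2, Akr1b8 and Aox4 held no core. A match describes the letters and not binding, and these windows leave out elements farther from the start.

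Imiquimod was followed by higher levels of many of these genes and lower levels of a few. Gsta4, Slc7a11, Akr1b8, Gpx2, Aox4 and Nqo1 were each 4.09-fold to 25.4-fold above the VAS + H2O level in IMQ + H2O, and Sod3, Gstt1 and Ephx1 were below it. All 43 genes could be tested, and 19 passed an adjusted p of at most 0.05 in edgeR's quasi-likelihood test with Benjamini-Hochberg adjustment over 18009 genes. Of the 43 genes, 16 (37.2%) were higher, against 12.7% of all genes tested, and 3 (6.98%) were lower, against 9.41%. Differentially expressed genes (DEG) needed an absolute log2 fold change (log2FC) of at least 1 as well, and 6 genes of the list (14.0%) were higher DEGs against 3.64% of all genes, while 2 (4.65%) were lower DEGs against 4.04%. The median log2FC was 0.24 over the list and -0.03 over all genes tested. The 3 libraries of each group did not overlap for 26 of the 43 genes (60.5%), against 45% of all genes tested. As the list was chosen with earlier results of these data known, its excess over all genes may be partly built in. With all libraries, 2291 of all genes tested were higher and 1695 were lower. Without replicate 2 of VAS + H2O, 13 genes of the list were higher and 1 was lower, with 912 and 534 of all genes. Without replicate 3 of IMQ + H2O, 15 were higher and 3 were lower, with 1387 and 744 of all genes. The list held 6 higher DEGs in both cases, with 418 and 407 among all genes.

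**Figure D1:**
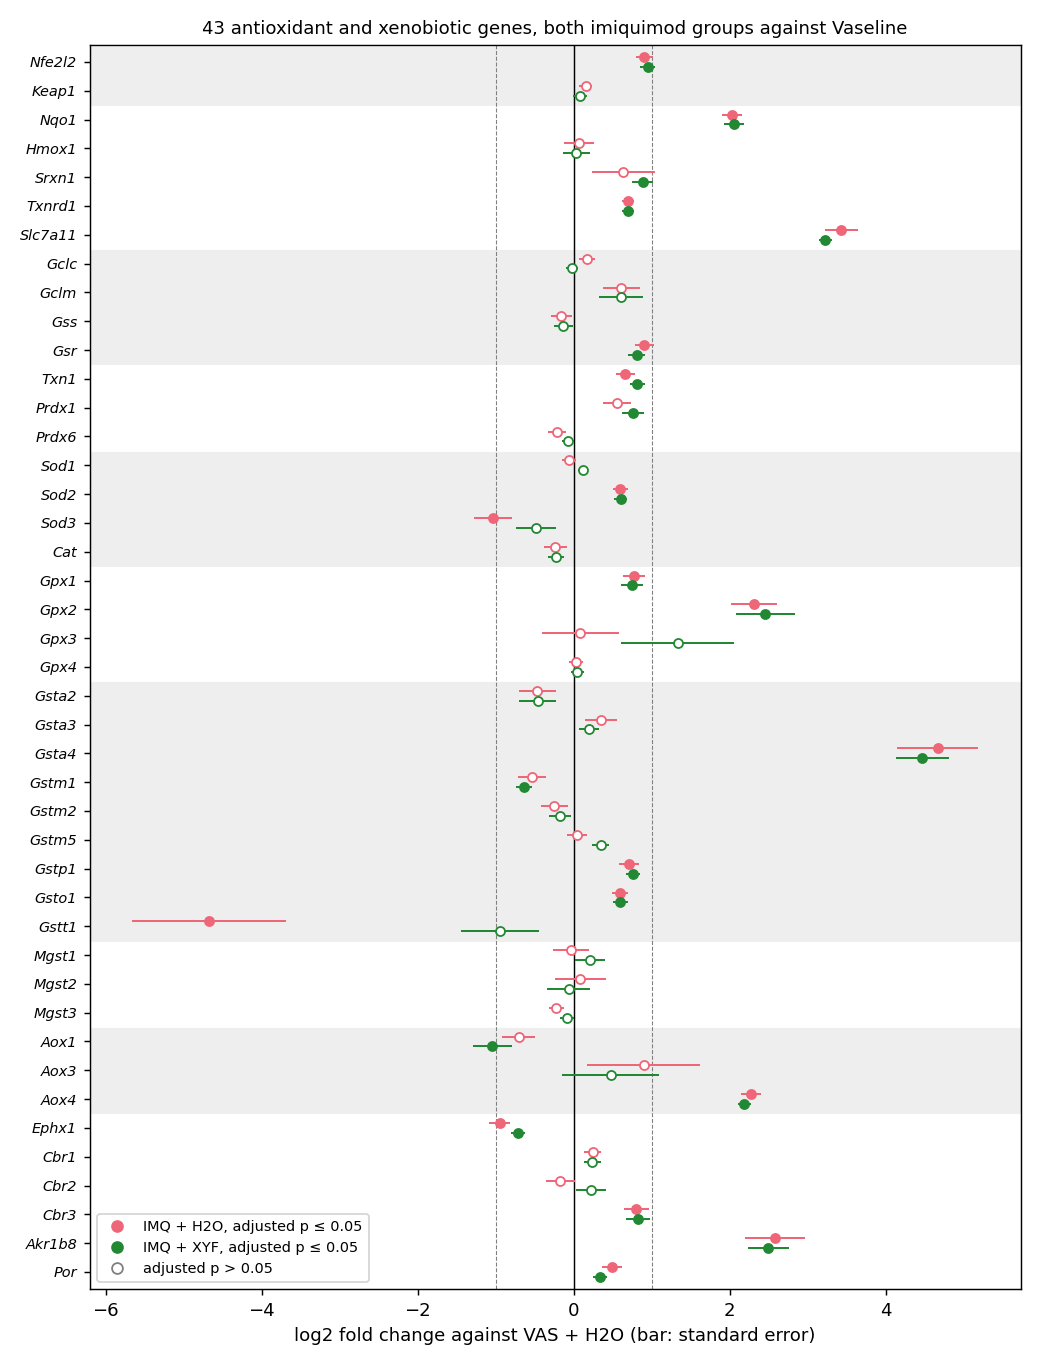
The log2 fold change of each of the 43 genes against VAS + H2O in edgeR's fit, with its standard error, for IMQ + H2O (red) and IMQ + XYF (green); filled points have an adjusted p of at most 0.05, shaded bands separate the roles and dashed lines mark a log2FC of 1 in either direction. Gsta4 lies at 4.67 and 4.47 and Slc7a11 at 3.43 and 3.23, and both groups share the VAS + H2O libraries.

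Nfe2l2 (chr2:75675513-75704641 on GRCm38, minus strand) was at 90.6, 88.6 and 103 CPM in VAS + H2O replicates 1 to 3, at 165, 167 and 201 CPM in IMQ + H2O, and at 197, 180 and 167 CPM in IMQ + XYF. All 6 imiquimod libraries lay above all 3 control libraries. Its log2FC in IMQ + H2O was 0.91 (SE 0.11, n = 3 per group, edgeR adjusted p = 0.00688). Keap1 (chr9:21229730-21239361), the adaptor that marks Nrf2 for degradation, was at 57.1, 48.7 and 53.7 CPM in VAS + H2O, 60.1, 57.3 and 61.7 CPM in IMQ + H2O, and 51.9, 55.5 and 61.5 CPM in IMQ + XYF. Its IMQ + H2O libraries lay just above the control libraries, and the log2FC of 0.15 (SE 0.09) had an edgeR adjusted p of 0.232. Keap1 shares 10.9% of its exon bases with the antisense transcript Gm16754.

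Among the classical targets of Nrf2, Slc7a11, Nqo1 and Txnrd1 rose, and Hmox1 and Srxn1 did not pass. Slc7a11 (chr3:49892526-50443614) is the cystine importer xCT, which supplies the cysteine for glutathione. It was at 11.1, 11.7 and 12.7 CPM in VAS + H2O, 148, 90.6 and 148 CPM in IMQ + H2O, and 107, 109.6 and 117 CPM in IMQ + XYF. The control libraries were close together, and replicate 2 was the lowest of the IMQ + H2O libraries. The log2FC was 3.43 (SE 0.21, edgeR adjusted p = 0.00171), a 10.8-fold difference. A stretch of 373 bases, 4.04% of its transcript, is 96.2% identical to the abundant tubulin gene Tuba1b, from which reads could be added. Nqo1 (chr8:107388225-107403206), which reduces quinones in a 2-electron step, went from 11.1, 9.38 and 11.5 CPM to 50.2, 41.3 and 40.6 CPM in IMQ + H2O, with 42.2, 40.5 and 50.5 CPM in IMQ + XYF. Every imiquimod library exceeded the highest control library, and the log2FC was 2.03 (SE 0.13, edgeR adjusted p = 0.00194). Txnrd1 (chr10:82833951-82897712), the cytosolic thioredoxin reductase, was at 87.9, 84.8 and 82.7 CPM in VAS + H2O, 132, 138 and 148 CPM in IMQ + H2O, and 130.1, 149.8 and 134 CPM in IMQ + XYF. Its groups were tight and apart, with a log2FC of 0.70 (SE 0.08, edgeR adjusted p = 0.00575).

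Hmox1 (chr8:75093621-75100589), the heme oxygenase, was at 36.6, 33.1 and 37.0 CPM in VAS + H2O, 47.8, 37.9 and 27.5 CPM in IMQ + H2O, and 38.9, 43.3 and 26.8 CPM in IMQ + XYF. The groups overlapped, and the log2FC in IMQ + H2O was 0.07 with a 95% interval of -0.38 to 0.52. Srxn1 (chr2:152105516-152111376), sulfiredoxin, restores overoxidized peroxiredoxins. It was at 19.5, 19.8 and 23.6 CPM in VAS + H2O, 39.5, 13.5 and 45.5 CPM in IMQ + H2O, and 32.7, 42.6 and 40.8 CPM in IMQ + XYF. Replicate 2 of IMQ + H2O was the only imiquimod library below the controls. The log2FC of 0.64 (SE 0.40) had an edgeR adjusted p of 0.295, and without that library it was 1.04 (SE 0.13, edgeR adjusted p = 0.0142).

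**Figure D2:**
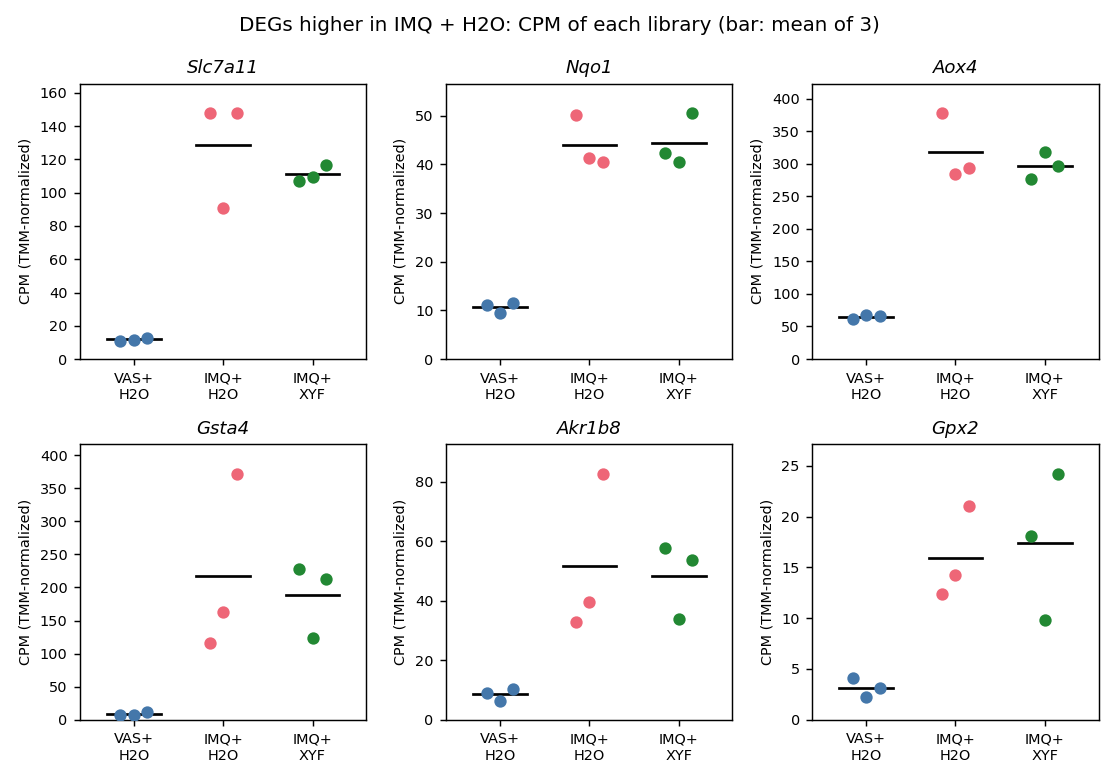
CPM of each library (points) and group means (bars) for the 6 higher DEGs of the list, on linear axes that start at 0. All 6 imiquimod libraries of every panel lie above the 3 VAS + H2O libraries, and the IMQ + H2O and IMQ + XYF libraries overlap.

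Glutathione is built by glutamate-cysteine ligase, made of the catalytic subunit Gclc and the modifier subunit Gclm, and by the synthase Gss, and its oxidized form is recycled by the reductase Gsr. Of these 4 genes only Gsr passed edgeR's test in IMQ + H2O, and DESeq2 also called Gclm (adjusted p = 0.0402). Gclc (chr9:77754535-77794485) was at 62.9, 56.8 and 54.9 CPM in VAS + H2O, 73.5, 59.1 and 65.6 CPM in IMQ + H2O, and 57.4, 53.8 and 60.9 CPM in IMQ + XYF. The groups overlapped, with a log2FC of 0.17 (SE 0.11, edgeR adjusted p = 0.288). Gclm (chr3:122245557-122270732) was at 13.1, 14.996 and 24.3 CPM in VAS + H2O, 29.994, 25.9 and 24.8 CPM in IMQ + H2O, and 34.6, 24.2 and 20.978 CPM in IMQ + XYF. Replicate 3 was the highest control library and nearly reached the lowest IMQ + H2O library. The log2FC was 0.61 (SE 0.23, edgeR adjusted p = 0.104), and without that control library it was 0.96 (SE 0.14, edgeR adjusted p = 0.0214). Gsr rose from 27.9 to 33.6 CPM over the control libraries to 53.2 to 65.3 CPM, with a log2FC of 0.91 (SE 0.12, edgeR adjusted p = 0.00797). Gss had a log2FC of -0.16 (SE 0.13) and overlapping groups, and shares exon bases with Acss2 on the other strand.

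Of the thioredoxin and peroxiredoxin genes, Txn1 rose by 0.66 on the log2 scale (SE 0.12, edgeR adjusted p = 0.0147). Txn1 is the cytosolic thioredoxin that Txnrd1 reduces. The peroxiredoxins use thioredoxin or glutathione to remove peroxides. Prdx1 ranged from 154 to 227 CPM in VAS + H2O, 235 to 328 CPM in IMQ + H2O and 321 to 348 CPM in IMQ + XYF. Its log2FC of 0.56 (SE 0.18) missed the threshold in IMQ + H2O with an edgeR adjusted p of 0.0717, and the value of 0.76 (SE 0.15) in IMQ + XYF passed with 0.0101. Prdx6 had a log2FC of -0.21 (SE 0.11) and overlapping groups. A stretch of 597 bases of Prdx1 is 98.3% identical to the pseudogene Gm21399, so some of its reads could be split. The call on Txn1 was lost without replicate 2 of VAS + H2O (edgeR adjusted p = 0.0541). Prdx1 passed with DESeq2 (adjusted p = 0.0190), and in edgeR with all 9 libraries in 1 fit (0.0328), with a replicate block (0.0207) or without replicate 2 of IMQ + H2O (0.0432).

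The 3 superoxide dismutases differed from each other in direction. Sod2, the mitochondrial enzyme, rose by 0.60 on the log2 scale (SE 0.10, edgeR adjusted p = 0.0110), from 58.7 to 68.8 CPM over the control libraries to 92.7 to 108 CPM. Sod1, the cytosolic enzyme, had a log2FC of -0.06 with a 95% interval of -0.27 to 0.16. Sod3 (chr5:52363791-52371418), the extracellular enzyme, was at 36.2, 33.1 and 27.4 CPM in VAS + H2O, 19.7, 17.5 and 10.4 CPM in IMQ + H2O, and 31.7, 22.1 and 15.2 CPM in IMQ + XYF. All IMQ + H2O libraries lay below all controls, while IMQ + XYF overlapped both groups. Sod3 fell by 1.04 on the log2 scale in IMQ + H2O (SE 0.24, edgeR adjusted p = 0.0273). This call was lost without replicate 1 or 2 of VAS + H2O (edgeR adjusted p = 0.0809 and 0.0812) or replicate 2 of IMQ + H2O (0.0578). Catalase (Cat), which decomposes hydrogen peroxide in peroxisomes, had a log2FC of -0.24 (SE 0.15) and overlapping groups.

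Glutathione peroxidases reduce peroxides with glutathione, and Gpx4 is the member that acts on lipid hydroperoxides in membranes. Gpx2 (chr12:76792333-76795554), best known from gut epithelium, was at 4.10, 2.22 and 3.13 CPM in VAS + H2O, 12.4, 14.3 and 21 CPM in IMQ + H2O, and 18.1, 9.78 and 24.2 CPM in IMQ + XYF. The control libraries lay far below, and the imiquimod libraries spread widely. The log2FC in IMQ + H2O was 2.32 (SE 0.29, edgeR adjusted p = 0.00753). Gpx1, the ubiquitous cytosolic form, rose by 0.78 on the log2 scale (SE 0.14, edgeR adjusted p = 0.0146). Gpx4 had a log2FC of 0.03 with a 95% interval of -0.19 to 0.25. Gpx3, the secreted plasma form, was at 10.1, 16.1 and 4.04 CPM in VAS + H2O, 15.6, 8.27 and 8.71 CPM in IMQ + H2O, and 51.2, 15.7 and 9.01 CPM in IMQ + XYF. Replicate 1 of IMQ + XYF stood far above the other 8 libraries, and the groups overlapped.

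Glutathione transferases join glutathione to electrophiles. Gsta4 (chr9:78182774-78209349) is the alpha-class enzyme with a preference for 4-hydroxynonenal, an aldehyde of lipid peroxidation, and it showed the largest log2FC of the 43 genes. It was at 6.54, 7.01 and 11.9 CPM in VAS + H2O, 116, 164 and 372 CPM in IMQ + H2O, and 228, 123 and 213 CPM in IMQ + XYF. Every imiquimod library was far above the controls, and replicate 3 of IMQ + H2O was the highest. The log2FC was 4.67 (SE 0.52, edgeR adjusted p = 0.00575), and without that library it was 4.03 (SE 0.30). The alpha-class enzymes Gsta2 and Gsta3 did not pass, with log2FC values of -0.47 (SE 0.24) and 0.35 (SE 0.20). Over its whole transcript Gsta2 is 97.2% identical to Gsta1, so counts of these genes are uncertain.

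Gstp1 rose by 0.71 (SE 0.13, edgeR adjusted p = 0.0147) and Gsto1 by 0.59 (SE 0.10, edgeR adjusted p = 0.0117) on the log2 scale. Gstp1 is the pi-class enzyme of epithelia, and Gsto1 is the omega-class enzyme that reduces rather than conjugates. Over 86.1% of its transcript Gstp1 is 98.2% identical to Gstp2, so its reads could be shared. Its call was lost without replicate 1 or replicate 2 of VAS + H2O (edgeR adjusted p = 0.0508 and 0.0541). The mu-class genes Gstm1, Gstm2 and Gstm5 had log2FC values of -0.54 (SE 0.18), -0.25 (SE 0.17) and 0.04 (SE 0.13) in IMQ + H2O, and none of these 3 passed. Gstm1 passed with DESeq2 (adjusted p = 0.0273) and, in edgeR, without replicate 1 of IMQ + H2O (-0.71, SE 0.14, adjusted p = 0.0364). In IMQ + XYF, Gstm1 passed at -0.64 (SE 0.11, edgeR adjusted p = 0.00613). Of the microsomal enzymes Mgst1, Mgst2 and Mgst3, which act in membranes, none passed in IMQ + H2O, where their log2FC values ranged from -0.22 to 0.09. DESeq2 also called 0 of these 3, and 1, Mgst3, had an unadjusted p under 0.05.

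Gstt1 (chr10:75783813-75798584), the theta-class enzyme, was close to the floor of detection and had the lowest log2FC of the list. It had 70, 57 and 50 counts in VAS + H2O, 6, 0 and 0 counts in IMQ + H2O, and 76, 30 and 9 counts in IMQ + XYF. These are 1.48, 1.73 and 1.43 CPM, then 0.207, 0 and 0 CPM, then 1.19, 0.925 and 0.257 CPM. The 0 counts allow up to 0.0757 and 0.0685 CPM in replicates 2 and 3 of IMQ + H2O. The summed counts, scaled to the library totals, gave a ratio of IMQ + H2O to VAS + H2O of 0.0329 with an exact 95% counting interval of 0.0119 to 0.0731. edgeR's filter on low counts kept Gstt1 in this comparison through the VAS + H2O libraries alone, so a call could only be a lower one. The counts of lower genes and lower DEGs in IMQ + H2O include it. Gstt1 fell by 4.68 on the log2 scale in edgeR's fit (SE 0.98, adjusted p = 0.0205), a value that depends on how 0 counts are handled. This call was lost without replicate 1 or replicate 2 of VAS + H2O (edgeR adjusted p = 0.0581 and 0.0593).

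The aldehyde oxidases oxidize aldehydes and nitrogen heterocycles with a molybdenum cofactor, and Aox1, Aox3 and Aox4 stand in this order on the plus strand of chromosome 1. Aox4 (chr1:58210397-58268597), known from skin and the Harderian gland, was at 61.8, 67.5 and 65.8 CPM in VAS + H2O, 378, 284 and 293 CPM in IMQ + H2O, and 276, 318 and 296 CPM in IMQ + XYF. Control libraries were tight, and every imiquimod library was far above them. The log2FC was 2.28 (SE 0.13, edgeR adjusted p = 0.00171). The antisense transcript Gm15759 covers 5.61% of the exon bases of Aox4. Aox1 (chr1:58029931-58106413) was at 17.6, 18.1 and 13.3 CPM in VAS + H2O, 12.3, 10.4 and 7.73 CPM in IMQ + H2O, and 10.6, 5.64 and 7.52 CPM in IMQ + XYF. All 6 imiquimod libraries lay below the controls. Its log2FC of -0.71 (SE 0.21) missed the threshold in IMQ + H2O with an edgeR adjusted p of 0.0533, and passed with DESeq2 (adjusted p = 0.0122). In IMQ + XYF, Aox1 fell by 1.04 on the log2 scale (SE 0.25, edgeR adjusted p = 0.0215), a call that was lost without replicate 1 or 2 of VAS + H2O or replicate 3 of IMQ + XYF (edgeR adjusted p = 0.0648, 0.0635 and 0.0762) and was no DEG without replicate 2 of IMQ + XYF. Aox3 (chr1:58113130-58200698), the main form in mouse liver, was at 0.296, 0.455 and 0.0574 CPM in VAS + H2O, 0.207, 0.702 and 0.602 CPM in IMQ + H2O, and 0.409, 0.401 and 0.314 CPM in IMQ + XYF. These values are near the floor, and the groups overlapped.

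Of the 6 genes of carbonyl and epoxide metabolism, 3 rose and 1 fell in IMQ + H2O. Akr1b8 (chr6:34354119-34368463), an aldo-keto reductase that reduces reactive aldehydes and retinal, was at 9.01, 6.31 and 10.4 CPM in VAS + H2O, 32.8, 39.6 and 82.7 CPM in IMQ + H2O, and 57.7, 33.9 and 53.7 CPM in IMQ + XYF. No imiquimod library reached down to the controls, and replicate 3 was the highest IMQ + H2O library. The log2FC was 2.58 (SE 0.39, edgeR adjusted p = 0.00985). Cbr3, a carbonyl reductase, rose by 0.80 (SE 0.16, edgeR adjusted p = 0.0185), and Por, which passes electrons to the cytochromes P450, rose by 0.49 (SE 0.13, edgeR adjusted p = 0.0363). The call on Por was lost when any library but replicate 2 of IMQ + H2O was left out (edgeR adjusted p = 0.0592 to 0.103). That on Cbr3 was lost without replicate 1 of VAS + H2O or replicate 1 of IMQ + H2O (edgeR adjusted p = 0.0585 and 0.0533). Ephx1, the microsomal epoxide hydrolase, went from 62.6, 69.0 and 62.7 CPM to 35.5, 38.7 and 27.7 CPM, with 43.5, 36.3 and 38.7 CPM in IMQ + XYF. The imiquimod libraries were all below the controls, and the log2FC in IMQ + H2O was -0.95 (SE 0.13, edgeR adjusted p = 0.00890). Cbr1 and Cbr2 had log2FC values of 0.24 (SE 0.11) and -0.17 (SE 0.19) and did not pass.

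Markers of other cell types also differed between the groups. The 6 dermal fibroblast markers summed to 66.3, 624 and 99.8 CPM in VAS + H2O, 44.6, 48.2 and 51.7 CPM in IMQ + H2O, and 202, 152 and 69.7 CPM in IMQ + XYF. The 6 cartilage markers, mostly Acan and with no count of Matn1, summed to 176, 422 and 195 CPM, then 75.2, 53.6 and 34.7 CPM, then 185, 128 and 127 CPM. Both sums were lowest in IMQ + H2O, the group where Sod3 and Gstt1 were lowest. Whether this RNA was carried over from other tissue or made in the epidermis was not tested. The 6 sebaceous gland markers, mostly Scd1, summed to 3238 to 5701 CPM in VAS + H2O, 2184 to 2695 CPM in IMQ + H2O and 2264 to 2795 CPM in IMQ + XYF. Scd1 was lower in all 6 imiquimod libraries than in the controls, and Plin2 was higher. Mc5r, Fasn, Awat1 and Elovl3 overlapped with the controls, so the lower sum reflects Scd1. Of the T cell markers, Cd3e, Cd3g and Trdc were lower in all 6 imiquimod libraries than in the controls, and Thy1 was higher. The part of sebaceous and T cells was not tested. The mean log2 CPM of the dermal fibroblast and cartilage markers alone was 2.67 to 5.04 in VAS + H2O and 1.38 to 1.63 in IMQ + H2O. This mean did not overlap, so the level of these markers and the treatment cannot be told apart in that comparison. With this mean as a covariate 0 genes of the whole table were called, while the log2FC was 3.46 for Slc7a11, 4.28 for Gsta4, 2.42 for Aox4, 1.84 for Nqo1, 1.93 for Akr1b8, 1.58 for Gpx2, -0.96 for Sod3 and -4.34 for Gstt1. The fitted difference of Prdx1 went from 0.56 to 0.11 (SE 0.27), that of Cbr3 from 0.80 to 0.42 (SE 0.25) and that of Gpx3 from 0.09 to 1.14 (SE 0.76). In IMQ + XYF against VAS + H2O, where the 2 ranges overlap, the same covariate left 18 genes of the list higher and 3 lower. Of all genes it left 2675 higher and 1847 lower, against 2996 and 2156 without it.

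The 6 neutrophil markers summed to 14.6 to 18.3 CPM in VAS + H2O, 280, 358 and 2170 CPM in IMQ + H2O, and 720, 918 and 588 CPM in IMQ + XYF. In the imiquimod libraries most of this sum was S100a8 and S100a9, which inflamed keratinocytes also make, and in the controls most of it was the chemokine receptor Cxcr2. The granulocyte receptor Csf3r was at 0.173, 0.858 and 38.0 CPM in IMQ + H2O and at 22.9, 1.33 and 6.10 CPM in IMQ + XYF, and the neutrophil antigen Ly6g was at 0 or at most 0.509 CPM. Cd14, a marker of monocytes, was at 1.76, 2.68 and 50.4 CPM in IMQ + H2O and at 31.7, 2.28 and 10.9 CPM in IMQ + XYF. Of the other macrophage and monocyte markers, Cd68, Lyz2 and Ly6c2 were also highest in replicate 3 within IMQ + H2O. Adgre1 and Csf1r were highest in replicate 2. The same replicate 3 of IMQ + H2O held the highest values of Gsta4, Akr1b8 and Gpx2 and the lowest of Sod3 in its group. Without it, the log2FC was 4.03 (SE 0.30) for Gsta4, 2.07 (SE 0.22) for Akr1b8 and 2.06 (SE 0.27) for Gpx2, with edgeR adjusted p-values of 0.00437, 0.00944 and 0.0142. In IMQ + XYF the lowest values of these 3 genes fell on replicate 2, which had a higher neutrophil marker sum than the other IMQ + XYF libraries and the lowest Csf3r. The part of infiltrating cells in these differences was not tested.

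**Figure D3:**
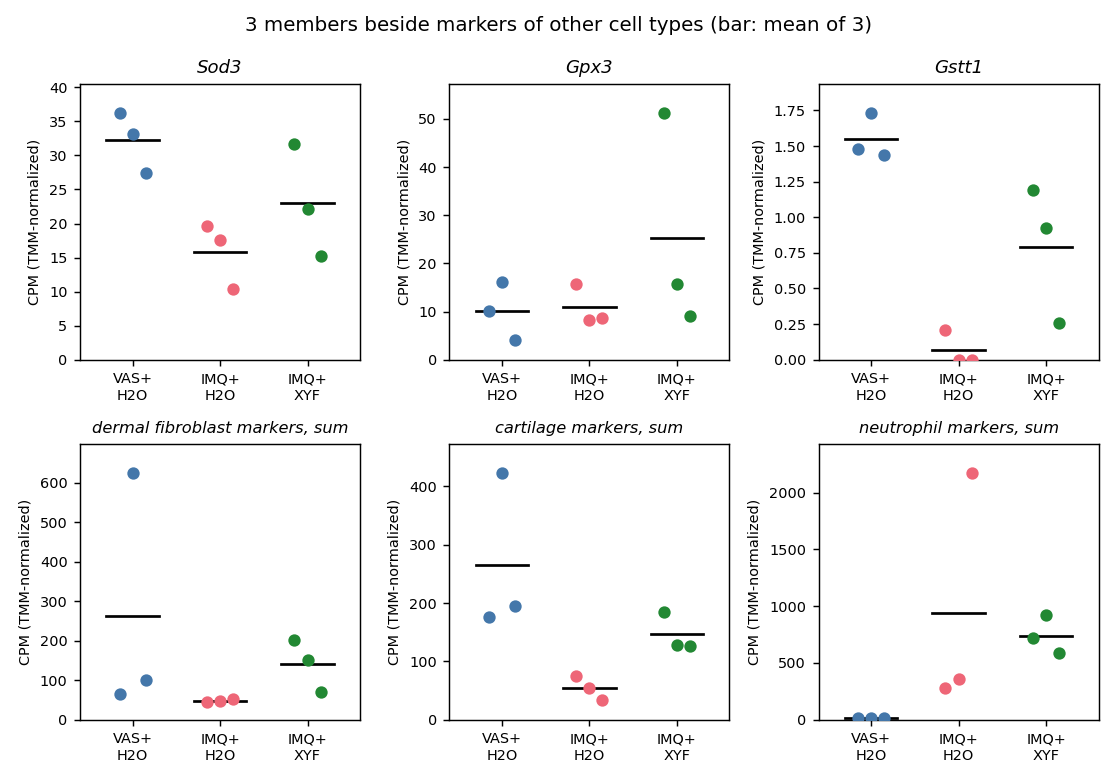
CPM of each library (points) and group means (bars) for Sod3, Gpx3 and Gstt1 above the summed CPM of 6 dermal fibroblast, 6 cartilage and 6 neutrophil markers, on linear axes that start at 0. The IMQ + H2O mean is lowest for Sod3, Gstt1, the dermal and the cartilage markers, and 1 IMQ + XYF library holds the Gpx3 value of 51.2 CPM.

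XYF under imiquimod did not change any gene of the list past the threshold. In IMQ + XYF against IMQ + H2O, 42 of the 43 genes were tested, as Gstt1 did not pass edgeR's filter on low counts. edgeR called 0 of them, against 0.0281% of all 17793 genes tested. DESeq2 also called 0 of the list, with 152 higher and 13 lower among all genes. An unadjusted p under 0.05 was found for 2 of the 42 genes, Cbr2 and Gstm5, against 5.43% of all genes. The median log2FC was 0.00 over the list and 0.00 over all genes. The libraries of the groups did not overlap for 3 tested genes (7.14%), which were Sod1, Gstm5 and Cbr2, against 10.7% of all genes tested. These 3 genes lay higher in IMQ + XYF.

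A missed threshold does not show that XYF left these genes alone, and the intervals give the differences that these data allow. These intervals cover the spread between libraries and not the level of the dermal fibroblast and cartilage markers. The mean log2 CPM of these markers was 1.38 to 1.63 in IMQ + H2O and 2.70 to 3.56 in IMQ + XYF, so their level and XYF cannot be told apart either. With that mean as a covariate, edgeR still called 0 of the 42 genes, but the log2FC of 34 moved by more than its SE without the covariate and 19 turned sign, among them Sod3 (-1.76, SE 0.63) and Gpx3 (-3.67, SE 1.005). Without the covariate, the 95% interval of the log2FC lay within 0.5 of 0 for 24 genes and within 1 of 0 for 37 genes, and its median width to either side was 0.30. For Nfe2l2 the log2FC was 0.04 (95% interval -0.22 to 0.29), for Nqo1 0.02 (-0.28 to 0.31), for Txnrd1 -0.01 (-0.20 to 0.19) and for Aox4 -0.09 (-0.39 to 0.20). For Slc7a11 it was -0.21 (-0.65 to 0.23), for Gsta4 -0.20 (-1.26 to 0.85), for Akr1b8 -0.09 (-0.97 to 0.79) and for Gpx2 0.13 (-0.69 to 0.95). None of these intervals, from Nfe2l2 to Gpx2, reached the size of the log2FC that the same gene had under imiquimod alone. Gsta4, Akr1b8 and Gpx2 varied between libraries of a group, and their intervals reached 0.79 or more to the higher side. Without replicate 3 of IMQ + H2O, the log2FC turned to 0.43 (SE 0.29) for Gsta4 and 0.42 (SE 0.24) for Akr1b8, and without replicate 1 that of Aox4 turned to 0.04 (SE 0.09). Slc7a11 was at -0.41 (SE 0.07) without replicate 2, and none of these values passed. Srxn1 had a log2FC of 0.24 (-0.72 to 1.20), Keap1 of -0.08 (-0.28 to 0.12), Gclc of -0.20 (-0.43 to 0.04) and Hmox1 of -0.05 (-0.63 to 0.53).

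**Figure D4:**
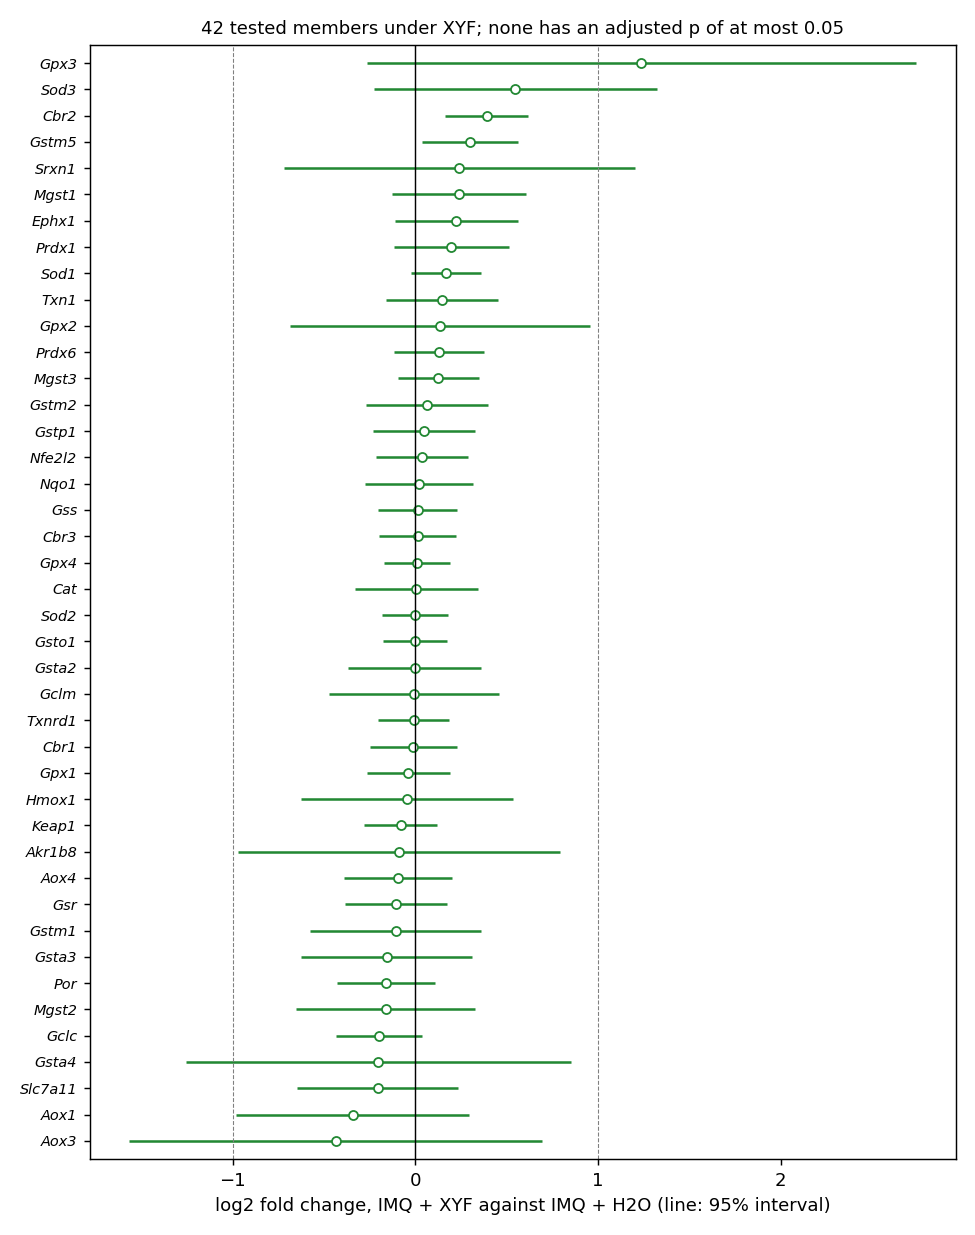
The log2 fold change of IMQ + XYF against IMQ + H2O with its 95% interval in edgeR's fit for the 42 tested genes, ordered by value. No gene has an adjusted p of at most 0.05, and the widest interval is that of Gpx3, from -0.27 to 2.74.

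Cbr2, a mitochondrial carbonyl reductase, had the smallest p of the 42 genes. It was at 23.6, 19.9 and 33.5 CPM in VAS + H2O, 23.4, 23.5 and 21.8 CPM in IMQ + H2O, and 29.7, 32.3 and 27.7 CPM in IMQ + XYF. The IMQ + XYF libraries lay above the IMQ + H2O libraries, and the control libraries spanned both. The log2FC between the imiquimod groups was 0.39 (95% interval 0.17 to 0.61, edgeR adjusted p = 0.479). Gstm5 was at 37.6, 39.6 and 31.8 CPM in IMQ + H2O and 42.04, 42.8 and 48.8 CPM in IMQ + XYF, with a log2FC of 0.30 (0.04 to 0.56, edgeR adjusted p = 0.817). Its exons share 13.9% of their bases with an antisense transcript, 4933431E20Rik. Gpx3 had the largest log2FC, 1.24 (SE 0.63, edgeR adjusted p = 0.992), which was 0.18 (SE 0.37) without replicate 1 of IMQ + XYF. That library had the most dermal fibroblast marker RNA among the imiquimod libraries, 202 CPM. Replicate 2 of VAS + H2O had 624 CPM of these markers with Gpx3 at 16.1 CPM, and a link between the 2 was not tested. Sod3 had a log2FC of 0.55 (95% interval -0.23 to 1.32).

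Gstt1 had 115 counts over the IMQ + XYF libraries against 6 over the IMQ + H2O libraries. Scaled to the library totals, the ratio was 16.4 with an exact counting interval of 7.31 to 45.6, which does not cover the spread between libraries. All 3 IMQ + XYF libraries lay above all IMQ + H2O libraries, though replicate 3, with 9 counts, was close to the 6 counts of replicate 1 of IMQ + H2O. With no filter on low counts, the log2FC was 3.71 (SE 1.16) with an edgeR adjusted p of 0.882. Against VAS + H2O the ratio of IMQ + XYF was 0.540 (0.423 to 0.686).

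IMQ + XYF was also set against VAS + H2O, to see how far the treated model lay from untreated skin. Of the 43 genes, 18 (41.9%) were higher, against 16.7% of 17954 genes tested, and 3 (6.98%) were lower, against 12%. The 6 higher DEGs (14.0%, against 4.58% of all genes) were Slc7a11, Nqo1, Aox4, Gsta4, Akr1b8 and Gpx2, with log2FC values of 3.23 (SE 0.08), 2.06 (SE 0.13), 2.19 (SE 0.08), 4.47 (SE 0.34), 2.498 (SE 0.26) and 2.46 (SE 0.38). Aox1 was the 1 lower DEG (2.33%, against 3.05% of all genes), and Gstm1 and Ephx1 also fell. This comparison shares its control libraries with that of IMQ + H2O, so likeness between them is partly built in. Sod3 and Gstt1 passed for IMQ + H2O and not here, and Srxn1, Prdx1, Gstm1 and Aox1 passed here and not there. Passing in 1 of them does not show that the imiquimod groups differ, and the direct comparison above called none of those tested. The calls on Srxn1 and Por were lost when all 9 libraries shared 1 fit (edgeR adjusted p = 0.105 and 0.0532). Por was also lost with a replicate block (0.0719) and without replicate 1 or 3 of VAS + H2O or of IMQ + XYF (0.0566 to 0.0793). Gclm and Cbr2 passed without replicate 3 of VAS + H2O (edgeR adjusted p = 0.0380 and 0.0389), and Gstm5 passed without replicate 1 (0.0336). Gstm5 also passed with DESeq2 (adjusted p = 0.0406) and, in edgeR, with at least 10 counts in every library (adjusted p = 0.0448).

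Levels of different genes were compared per kilobase of exon. In VAS + H2O, Gpx1 had the highest level, with 125 ± 22.0 CPM per kilobase (SD, n = 3), and its libraries did not overlap those of the next gene, Gsto1, with 76.3 ± 8.25. Gstm1, Prdx1 and Txn1 followed with 65.7 ± 2.95, 65.4 ± 12.9 and 58.9 ± 3.81 CPM per kilobase, which overlapped as neighbours in the order. Slc7a11 had 0.851 ± 0.0591 CPM per kilobase in VAS + H2O, above only Aox3 with 0.0383 ± 0.0285. Of the 42 pairs of neighbours in the order, 5 pairs did not overlap among the controls, 5 under imiquimod alone and 7 with XYF. In IMQ + H2O, Gsta4 reached a level of 172 ± 107 CPM per kilobase, next to Gpx1 with 216 ± 13.5, and the SD of Gsta4 leaves their order uncertain. Slc7a11 reached 9.25 ± 2.37 CPM per kilobase, and Aox4 37.8 ± 6.14 from 7.73 ± 0.346.

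**Figure D5:**
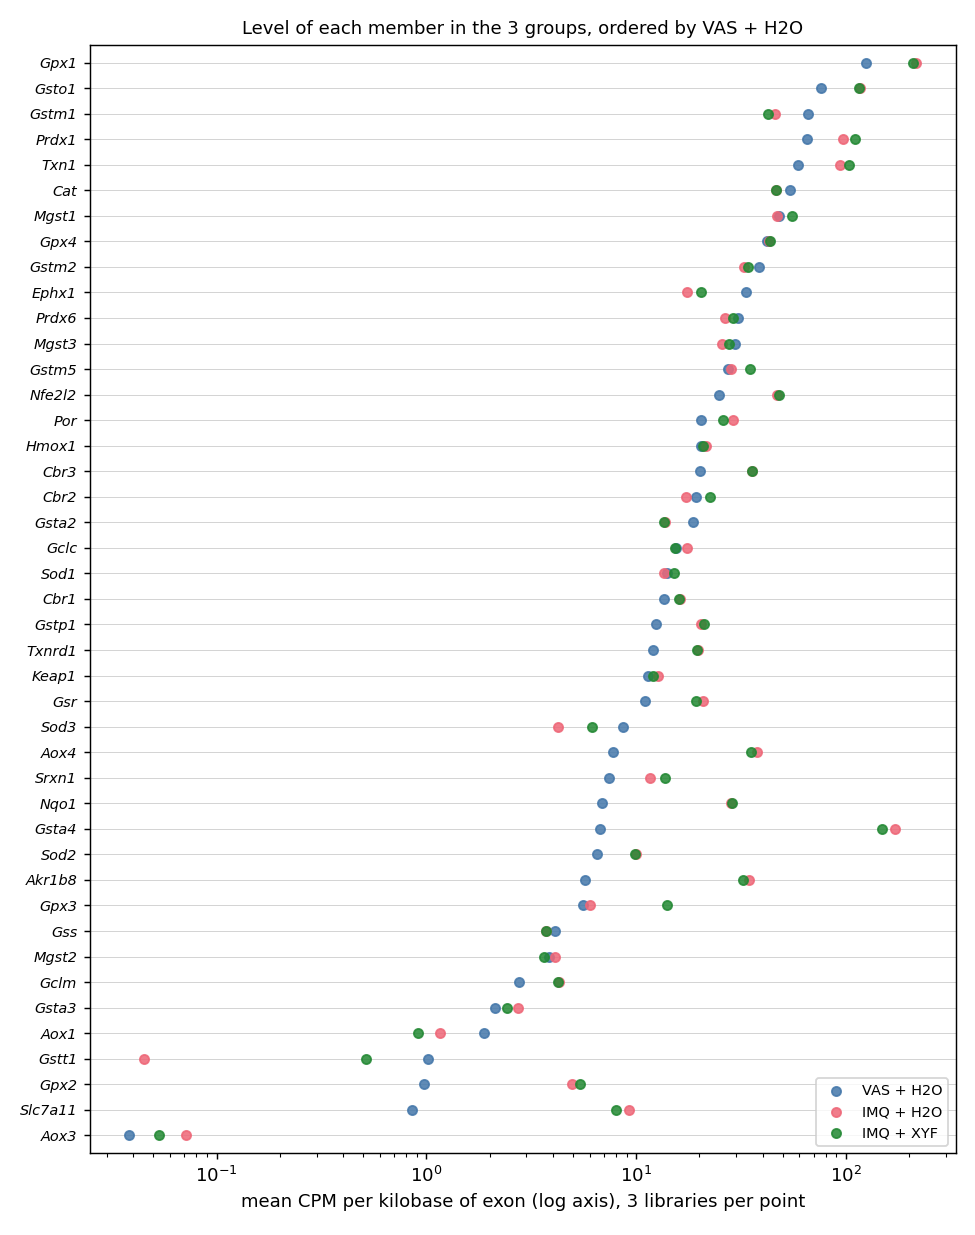
Mean CPM per kilobase of exon on a log axis for the 43 genes in the 3 groups (3 libraries per point), ordered by VAS + H2O. Gpx1 is highest in VAS + H2O at 125 and Aox3 lowest at 0.0383, and Gsta4 moves from 6.71 to 172 in IMQ + H2O.

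Other genes of the same pathways came from 7 lists of 147 genes, of which 144 were in the table. These lists, too, were chosen with earlier results of these data known. Their shares are to be read against the 12.7% of all tested genes that were higher and the 9.41% that were lower in IMQ + H2O. Among partners and regulators of Nrf2, 2 of 15 tested genes (13.3%) were higher and 1 (6.67%) was lower in IMQ + H2O, and Brca1, a DNA repair protein that also binds Nrf2, had a log2FC of 1.28 (SE 0.30, edgeR adjusted p = 0.0261). Of 26 other thioredoxin, peroxiredoxin and glutaredoxin genes, 7 (26.9%) were higher and 1 (3.85%) was lower. The glutaredoxin Glrx rose by 1.45 (SE 0.15) and the mitochondrial Prdx3 by 1.19 (SE 0.20) on the log2 scale, and Txnip, which binds and inhibits thioredoxin, fell by 1.56 (SE 0.30). Slc3a2, the heavy chain that carries Slc7a11 to the membrane, rose by 0.59 (SE 0.09). Of 14 other glutathione transferase genes, 2 (14.3%) were higher and 1 (7.14%) was lower, with log2FC values of 1.99 (SE 0.12) for the prostaglandin E synthase Ptges and 1.69 (SE 0.29) for Gsta1.

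Of 18 NADPH and iron genes regulated by Nrf2, 5 (27.8%) were higher and 2 (11.1%) lower, and the exporter Abcc3 had a log2FC of 1.34 (SE 0.14). Among 35 aldehyde, carbonyl and phase I or II enzymes, 7 (20%) were higher and 8 (22.9%) lower. The retinal dehydrogenase Aldh1a3 rose by 2.22 (SE 0.46), the carboxylesterase Ces2e by 1.20 (SE 0.31) and the epoxide hydrolase Ephx3 by 1.02 (SE 0.13) on the log2 scale. Cyp2f2 fell by 1.84 (SE 0.42), Aldh1a7 by 1.19 (SE 0.23) and Fmo5 by 1.02 (SE 0.14). Of 8 molybdenum cofactor genes and molybdoenzymes 1 (12.5%) was higher and 1 (12.5%) lower, and xanthine dehydrogenase (Xdh), an enzyme related to the aldehyde oxidases, rose by 0.90 (SE 0.09). Of 9 tested NADPH oxidase and nitric oxide synthase genes edgeR and DESeq2 called 0, with 1 at an unadjusted p under 0.05. In IMQ + XYF against IMQ + H2O edgeR called 0 genes of every list, against 0.0281% of all genes tested. DESeq2 called 1 in the thioredoxin list, with 152 higher and 13 lower among all genes. An edgeR unadjusted p under 0.05 was found for 4 genes, 1 of 26 in the thioredoxin list and 3 of 35 phase I or II enzymes. Among all genes tested this share was 5.43%.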

How the data were processed

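Intact ear epidermis of 9 libraries in 3 groups of 3 was sequenced, and groups were taken from the labels. The authors deposited whole-number read counts per gene, with no normalization. The submitters' processing notes name STAR 2.5, FastQC, Cuffnorm and DESeq 1.22.1, and the methods name Ensembl release 90, StringTie and DESeq2. The counting tool and its strand setting are not given in the sources used here, and the labels speak of strand-specific reads while the methods name a TruSeq v2 kit, so reads of overlapping antisense genes may not be told apart.

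Counts were tested per pair of groups with edgeR 4.0.16 (R 4.3.3, limma 3.58.1), using TMM scaling, filterByExpr, the quasi-likelihood test and Benjamini-Hochberg adjustment over all genes tested. Each comparison thus set 3 libraries against 3. CPM used TMM-scaled library sizes. Alternatives were DESeq2 1.42.0, RLE size factors, a fit of all 9 libraries together, a replicate block, a dermal and cartilage marker covariate, leaving out each library, and either no filter on low counts or a minimum of 10 counts per library.

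Exon positions and lengths came from GENCODE M21 on GRCm38. Similar transcripts were those with at least 150 bases at 95% identity or more. The members and lists were chosen with earlier results of these data known. Genes described in every library were the DEGs of any comparison and 12 members named whatever their values, and of each other pathway list up to 3 DEGs per direction. Values of Gpx3, Gpx1, Cbr2, Gstm5 and others outside this rule were added after they were seen.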

Additional observations from a re-analysis of the deposited data

How the results depend on the processing

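No called value changed sign under any alternative. RLE size factors and no low-count filter changed no call. In IMQ + H2O against VAS + H2O, DESeq2 called 5 lower genes in place of 3, adding Aox1 and Gstm1, and 18 higher in place of 16, adding Gclm and Prdx1. Of all genes, DESeq2 called 2149 lower and 2704 higher. The dermal and cartilage marker covariate left 0 higher, 0 lower, 0 higher DEGs and 0 lower DEGs, and 0 genes of the whole table, since the covariate did not overlap between these groups. Of the 2 lower DEGs, 1 was left with at least 10 counts in every library, where Gstt1 was not tested, and 1 with a replicate block, where Gstt1 had an edgeR adjusted p of 0.0505. Leaving out 1 library gave 1 to 4 lower genes and 0 to 2 lower DEGs, with 13 to 18 higher genes and 6 to 8 higher DEGs. Over all genes these fits called 534 to 1117 lower and 912 to 1960 higher. In IMQ + XYF against VAS + H2O, the single lower DEG became 0 with the covariate and 0 to 1 when 1 library was left out. In IMQ + XYF against IMQ + H2O, 0 genes of the list were called under every alternative. Of all genes, DESeq2 called 152 higher and 13 lower, and each other alternative called at most 5 higher and at most 1 lower. With so few calls among all genes, the 0 of those other alternatives says little about the list.

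Same-numbered libraries of different groups did not deviate together (r = -0.124 to 0.107, with 1 of 9 libraries closest to its own number). As the deviations are from means of only 3 libraries, this cannot decide whether the numbers pair the libraries. The replicate block gave 16 higher and 3 lower genes of the list in IMQ + H2O, with Prdx1 (edgeR adjusted p = 0.0207) and Aox1 (0.0318) gained and Por (0.0867) and Gstt1 (0.0505) lost, and 1867 higher and 1135 lower of all genes against 2291 and 1695. With 3 libraries a group, the log2FC of Srxn1, Gsta4, Akr1b8, Gpx2 and Gpx3 had wide intervals, and Aox3 and Gstt1 lay near the floor of detection.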
